A study of Mus musculus with 8 samples.

Results

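The genes described here are 34 mouse genes of cholesterol and fatty acid synthesis, read out of a table of 18251 genes by their symbols. They comprise 18 enzymes of sterol synthesis, 5 genes that regulate or move sterols and 11 enzymes of fatty acid synthesis. All 34 were found in the table, and all 34 were among the 13436 genes with enough counts to be tested. The membership was set by function and not by a measured value, though with earlier results of these data known.

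RNA was sequenced in bulk from tumours grown under the skin of C57 mice (male, aged 7 weeks when used) from MC38, a colon cancer cell line of the mouse. In both groups the cells carried TetOn-CXCL14, from which the chemokine CXCL14 can be switched on by doxycycline (DOX). The DOX group comprised 4 tumours from mice given 1 mg/mL DOX in their drinking water over 3 days. The Con group comprised 4 tumours from untreated mice. The labels name 300 mm3 once as the size when DOX began and once as the harvest size. No mice given DOX without the construct were included, so responses to DOX and to CXCL14 cannot be told apart. Cxcl14 stood at 30.1, 30.2, 20.3 and 15.8 CPM in DOX tumours 1 to 4, against 9.34, 9.69, 8.30 and 9.59 CPM in Con tumours 1 to 4; CPM is a read count scaled to library size. Among the DOX tumours it was lowest in number 4, and its adjusted p was 0.387 in edgeR (quasi-likelihood test, Benjamini-Hochberg adjustment) and 1.0e-06 in DESeq2.

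Cells make cholesterol from acetyl-CoA through mevalonate, squalene and lanosterol, and they make fatty acids from the same acetyl-CoA through malonyl-CoA. Both branches are transcribed under the sterol regulatory element-binding proteins, SREBPs. When membrane sterol is low, SCAP carries an SREBP to the Golgi for cleavage, and the freed part enters the nucleus; when sterol is high, INSIG holds SCAP and SREBP in the endoplasmic reticulum. SREBP2 acts mostly on the sterol branch, SREBP1 mostly on the fatty acid branch. Oxysterols also activate LXR, a nuclear receptor that drives cholesterol export.

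The promoters of 27 of the 34 genes were held in the RefSeq promoter table of GRCm38.p6, as windows of 250 bases before and 50 after a transcript start. For 21 of the 27 a window lay at the outermost start of the annotated gene. For the other 6 the nearest window lay further inside, between 5 bases in for Mvk and 65803 bases in for Acaca, and 619 for Fasn. The genes Fdps, Fdft1, Sqle, Stard4, Scd1, Scd2 and Fads1 were not among them. Each window was searched on both strands for TCACNCCAC, a form of the sterol regulatory element, for CCAAT, the box bound by NF-Y, for GGGCGG, the Sp1 box, and for CACGTG, the E-box. CCAAT was found in 14 of 15 sterol enzyme promoters (93.3%), 3 of 4 regulatory promoters and 5 of 8 fatty acid enzyme promoters (62.5%). It was held by 43.5% of the tested genes with a window and by 41.1% of all 27025 genes with one. GGGCGG was found in 14 of 15 sterol enzyme promoters (93.3%), 4 of 4 regulatory promoters and 4 of 8 fatty acid enzyme promoters (50%), against 66.2% of tested genes and 38.2% of all genes. CACGTG was found in 6 of 27 (22.2%), against 11.2% and 8.09%, and TCACNCCAC in 1 of 27 (3.7%), against 1.34% and 1.44%. A match is a run of letters and not a bound site.

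A set of 4 promoters is printed because the genes behave differently among the tumours below: Hmgcs1 and Nsdhl vary strongly, Fasn less so, and Ebp hardly at all. The windows are chr13:119690101-119690400 on the plus strand for Hmgcs1, chrX:72918271-72918570 on the plus strand for Nsdhl, chr11:120824498-120824797 on the minus strand for Fasn and chrX:8193463-8193762 on the minus strand for Ebp. Each is written 5′ to 3′ along its gene. Capitals mark CCAAT, or its reverse complement ATTGG, and in Hmgcs1 also the TCACNCCAC match; in Fasn a pair of CCAAT matches on opposite strands overlaps.
Hmgcs1: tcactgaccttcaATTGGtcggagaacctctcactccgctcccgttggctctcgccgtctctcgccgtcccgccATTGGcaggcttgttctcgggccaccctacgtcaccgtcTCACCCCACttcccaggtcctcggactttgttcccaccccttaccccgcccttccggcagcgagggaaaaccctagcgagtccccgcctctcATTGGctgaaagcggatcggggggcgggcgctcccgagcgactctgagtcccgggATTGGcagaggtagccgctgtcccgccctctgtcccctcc
Nsdhl: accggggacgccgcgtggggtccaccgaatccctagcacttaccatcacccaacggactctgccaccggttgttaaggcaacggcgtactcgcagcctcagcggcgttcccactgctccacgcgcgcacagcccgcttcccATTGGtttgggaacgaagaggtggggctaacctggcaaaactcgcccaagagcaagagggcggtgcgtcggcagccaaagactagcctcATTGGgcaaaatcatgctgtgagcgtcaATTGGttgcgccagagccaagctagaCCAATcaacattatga
Fasn: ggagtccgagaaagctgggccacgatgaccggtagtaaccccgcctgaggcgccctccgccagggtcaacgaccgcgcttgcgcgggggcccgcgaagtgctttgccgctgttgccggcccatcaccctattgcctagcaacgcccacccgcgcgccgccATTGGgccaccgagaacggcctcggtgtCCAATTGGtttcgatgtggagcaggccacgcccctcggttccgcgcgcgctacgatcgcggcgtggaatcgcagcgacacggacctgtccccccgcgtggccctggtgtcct
Ebp: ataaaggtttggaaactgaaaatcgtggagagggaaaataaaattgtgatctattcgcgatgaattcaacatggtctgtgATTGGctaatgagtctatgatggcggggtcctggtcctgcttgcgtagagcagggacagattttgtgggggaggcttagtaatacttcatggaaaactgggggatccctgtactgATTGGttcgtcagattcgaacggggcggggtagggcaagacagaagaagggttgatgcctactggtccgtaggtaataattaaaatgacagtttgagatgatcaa
The Hmgcs1 window held 4 CCAAT matches and the only TCACNCCAC match among the 27 genes. The Nsdhl window held 4 CCAAT matches, the Fasn window 3 and the Ebp window 2. These 4 were picked by how their genes behaved, and a link between the matches and the spread of a gene was not tested.

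Between DOX and Con tumours, 0 of the 34 genes passed the test. Most of their fold changes lay slightly below 1, in the sterol and the fatty acid branch alike, and for every gene the DOX and Con values overlapped. In edgeR's quasi-likelihood test with Benjamini-Hochberg adjustment over all 13436 genes, 0.00744% of the tested genes passed an adjusted p of 0.05, which is 1 gene, Adgrg1. The adjusted p of the 34 lay between 0.387 and 0.999. DESeq2 passed 0.618% of its genes and again 0 of the 34, with adjusted p between 0.144 and 0.998. At an unadjusted p below 0.05, 2 of the 34 were lower in DOX tumours and 0 higher, where 3.95% of all tested genes were lower and 7.65% higher. Groups without overlap occurred in 5.66% of all tested genes, 3.23% with DOX above and 2.43% with DOX below, and in 0 of the 34.

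The median log2 fold change was -0.17 for the 18 sterol enzymes, -0.22 for the 5 regulatory genes and -0.13 for the 11 fatty acid enzymes, against -0.01 for all tested genes. A value below 0 was found for 15 sterol enzymes, 5 regulatory genes and 8 fatty acid enzymes, 28 of 34 in all, where 53.2% of tested genes had one. The 95% interval of the fold change stayed inside 1.5-fold in either direction for 18 of the 34 genes, among them 8 of the 11 fatty acid enzymes and 7 of the 18 sterol enzymes. For the other genes a change of that size was within the error. The sterol median was -0.05 without DOX tumour 4, -0.01 without Con tumour 4 and -0.29 without Con tumour 1, and the fatty acid median 0.0063, 0.0062 and -0.24. Leaving out DOX tumour 4 and Con tumour 4 together, an alternative chosen after seeing the data, turned the sterol median to 0.10 and the fatty acid median to 0.11. In these bulk samples, fewer cells of a type and less RNA per cell cannot be told apart.

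**Figure D1:**
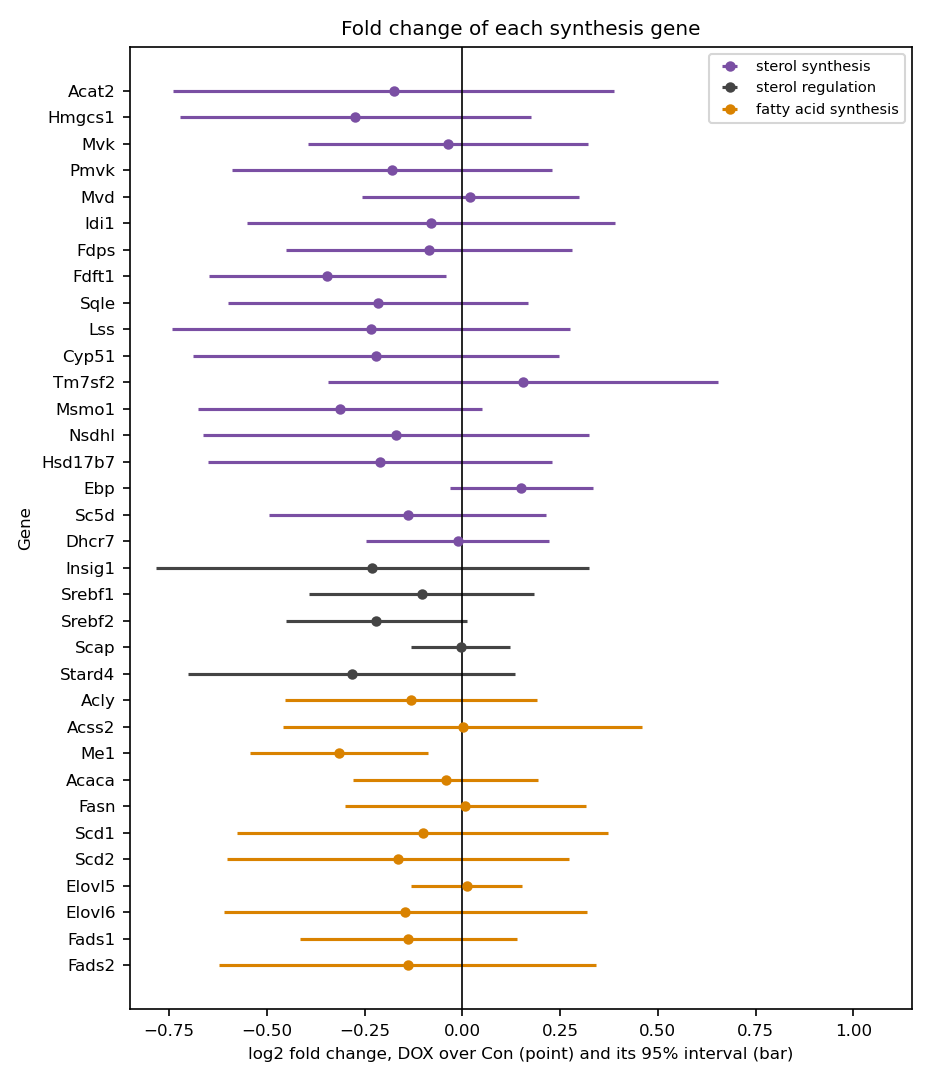
Log2 fold change of DOX over Con tumours for each of the 34 genes (points) with its 95% interval from edgeR (bars), coloured by gene group. The fold changes run between -0.35 for Fdft1 and 0.15 for Tm7sf2, and the intervals of all genes but Fdft1 and Me1 include 0.

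The first steps of the sterol branch make mevalonate and its isoprenoid products. Hmgcs1, the synthase of HMG-CoA, had 227, 233, 216 and 137 CPM in DOX tumours 1 to 4, against 189, 251, 231 and 313 CPM in Con tumours 1 to 4. DOX tumour 4 was the lowest and Con tumour 4 the highest of the 8, and the other DOX tumours lay inside the Con range. The log2 fold change was -0.27 ± 0.20 (SE, n = 4 each; edgeR adjusted p = 0.618). Fdps, which makes farnesyl diphosphate for sterols and for prenylated proteins, had 151, 146, 139 and 97.9 CPM in DOX tumours 1 to 4, against 113, 147, 135 and 172 CPM in Con tumours 1 to 4. Here too the lowest tumour was DOX 4 and the highest Con 4, with Con tumour 1 second lowest. The means were 133 ± 24.2 CPM in DOX and 142 ± 24.7 CPM in Con tumours (SD, n = 4 each), and the log2 fold change was -0.09 ± 0.16 (SE; edgeR adjusted p = 0.865). Acat2, the thiolase that joins acetyl-CoA units, and the kinases Mvk and Pmvk had log2 fold changes of -0.18 ± 0.25, -0.04 ± 0.16 and -0.18 ± 0.18 (SE). The decarboxylase Mvd had 0.02 ± 0.12 and the isomerase Idi1 -0.08 ± 0.21 (SE). Acat2, Idi1 and Fdft1 had a whole count in 0 of the 8 libraries, and whether their counts include reads shared with other genes was not tested.

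Squalene formation and closure into lanosterol are the steps that commit carbon to sterols. Fdft1, squalene synthase, had the lowest fold change of the 34, with 63.0, 68.4, 60.7 and 45.0 CPM in DOX tumours 1 to 4, against 68.8, 77.4, 66.8 and 88.3 CPM in Con tumours 1 to 4. Only DOX tumour 2 reached into the Con range, above Con tumour 3. Fdft1 averaged 59.3 ± 10.0 CPM in DOX and 75.3 ± 9.79 CPM in Con tumours (SD, n = 4 each). Its log2 fold change of -0.35 ± 0.13 (SE) had an unadjusted p of 0.0294 in edgeR and an adjusted p of 0.398, so it did not pass. Sqle, squalene epoxidase, had 186, 195, 170 and 121 CPM in DOX tumours 1 to 4, against 160, 192, 184 and 244 CPM in Con tumours 1 to 4. The order again placed DOX tumour 4 lowest and Con tumour 4 highest. Sqle averaged 168 ± 33.1 CPM in DOX and 195 ± 35.2 CPM in Con tumours (SD, n = 4 each), with a log2 fold change of -0.22 ± 0.17 (SE; edgeR adjusted p = 0.651). For Lss, which closes lanosterol, it was -0.23 ± 0.22 (SE).

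The late enzymes trim lanosterol to cholesterol. Cyp51 and Msmo1, which take off methyl groups of lanosterol, had log2 fold changes of -0.22 ± 0.21 and -0.31 ± 0.16 (SE). Nsdhl and Hsd17b7 work with Msmo1 in the same demethylation, and they had -0.17 ± 0.22 and -0.21 ± 0.19 (SE). Sc5d, the sterol C5 desaturase, had -0.14 ± 0.16 (SE) and Dhcr7, the last reductase of one route, -0.01 ± 0.10 (SE). A pair of late enzymes stood apart from the rest. Ebp, the isomerase of the sterol nucleus, had 20.3, 21.9, 22.2 and 24.5 CPM in DOX tumours 1 to 4, against 20.0, 21.3, 18.6 and 20.3 CPM in Con tumours 1 to 4. DOX tumour 4, the lowest for most sterol enzymes, was the highest for Ebp, and the whole spread of the 8 tumours was narrow. The log2 fold change of Ebp was 0.15 ± 0.08 (SE; edgeR adjusted p = 0.498). Tm7sf2, a sterol C14 reductase of low level, had 2.43, 2.18, 2.40 and 2.94 CPM in DOX tumours 1 to 4, against 2.29, 3.01, 2.02 and 1.61 CPM in Con tumours 1 to 4. Con tumour 4 was the lowest of the 8 for Tm7sf2, the reverse of most other sterol enzymes, and its log2 fold change was 0.15 ± 0.22 (SE; edgeR adjusted p = 0.815). The tumour values of Hmgcs1, Ebp and Tm7sf2, like those of Insig1, Scap and Fasn below, are given because of how these genes ranked the tumours, seen after their values.

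Regulation of both branches runs through the SREBP genes themselves and the proteins that hold or carry them. Srebf2, which encodes SREBP2, had 282, 268, 249 and 197 CPM in DOX tumours 1 to 4, against 295, 297, 274 and 294 CPM in Con tumours 1 to 4. DOX tumours 2, 3 and 4 lay below every Con tumour, while DOX tumour 1 lay above Con tumour 3. Srebf2 averaged 249 ± 37.2 CPM in DOX and 290 ± 10.6 CPM in Con tumours (SD, n = 4 each). Its log2 fold change was -0.22 ± 0.10 (SE), with an unadjusted p of 0.0594 and an adjusted p of 0.450 in edgeR. Srebf1, which encodes both SREBP1 isoforms, had 180, 160, 162 and 119 CPM in DOX tumours 1 to 4, against 148, 194, 162 and 164 CPM in Con tumours 1 to 4. Apart from DOX tumour 4 the values of the groups were mixed. Srebf1 averaged 155 ± 25.7 CPM in DOX and 167 ± 19.7 CPM in Con tumours (SD, n = 4 each), a log2 fold change of -0.10 ± 0.13 (SE; edgeR adjusted p = 0.779). The counts are per gene, so the SREBP1 isoforms were not separated, and Srebf1 too had a whole count in 0 of 8 libraries.

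Insig1, both a retention factor for SCAP and a target of SREBP, had one of the widest spreads. Its levels were 101, 99.9, 87.8 and 55.6 CPM in DOX tumours 1 to 4, against 69.3, 95.3, 98.3 and 141 CPM in Con tumours 1 to 4. Con tumour 4 was highest, DOX tumour 4 lowest and Con tumour 1 next to lowest. The log2 fold change was -0.23 ± 0.24 (SE; edgeR adjusted p = 0.745). Stard4, a carrier of cholesterol between membranes, had -0.28 ± 0.18 (SE). Scap, the escort of SREBP, was nearly level, with 62.9, 57.9, 58.2 and 56.7 CPM in DOX tumours 1 to 4, against 57.5, 60.6, 58.7 and 59.7 CPM in Con tumours 1 to 4. Its log2 fold change was -0.0049 ± 0.06 (SE), with a 95% interval of -0.13 to 0.12.

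The fatty acid branch opens with enzymes that supply acetyl-CoA and NADPH. Acly, which splits citrate into acetyl-CoA for both branches, had 488, 472, 434 and 347 CPM in DOX tumours 1 to 4, against 364, 506, 484 and 554 CPM in Con tumours 1 to 4. The lowest values were those of DOX tumour 4 and Con tumour 1, and the highest that of Con tumour 4. Acly averaged 435 ± 63.1 CPM in DOX and 477 ± 80.8 CPM in Con tumours (SD, n = 4 each), with a log2 fold change of -0.13 ± 0.14 (SE; edgeR adjusted p = 0.750). Acss2, which makes acetyl-CoA from acetate, was low in both groups, and its log2 fold change was 0.0008 ± 0.21 (SE). Me1, malic enzyme and a source of NADPH, had 153, 133, 133 and 119 CPM in DOX tumours 1 to 4, against 191, 177, 148 and 154 CPM in Con tumours 1 to 4. Only DOX tumour 1 reached into the Con range, and for Me1 the highest tumour was Con 1, which was low for most other genes. Me1 averaged 135 ± 14.1 CPM in DOX and 168 ± 20.1 CPM in Con tumours (SD, n = 4 each). Its log2 fold change of -0.32 ± 0.10 (SE) had the smallest unadjusted p of the 34 in edgeR, 0.0115, with an adjusted p of 0.387, and did not pass.

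The next enzymes build, lengthen and desaturate the fatty acid chain. Fasn, fatty acid synthase, had 543, 536, 534 and 451 CPM in DOX tumours 1 to 4, against 378, 558, 503 and 615 CPM in Con tumours 1 to 4. The DOX tumours lay within the wider Con range, and the log2 fold change was 0.0076 ± 0.14 (SE), with a 95% interval of -0.30 to 0.32. Acaca, which makes malonyl-CoA, had -0.04 ± 0.11 (SE). Scd2, a stearoyl-CoA desaturase, had 886, 839, 784 and 481 CPM in DOX tumours 1 to 4, against 650, 930, 880 and 891 CPM in Con tumours 1 to 4. DOX tumour 4 stood well below the other 7, and Con tumour 1 was next to lowest. Scd2 averaged 747 ± 182 CPM in DOX and 838 ± 127 CPM in Con tumours (SD, n = 4 each), with a log2 fold change of -0.16 ± 0.19 (SE; edgeR adjusted p = 0.768). Its paralog Scd1 had -0.10 ± 0.21 (SE). Scd1, Scd2 and the desaturase Fads2 also had a whole count in 0 of the 8 libraries. Fads1 and Fads2, which make polyunsaturated chains, both had -0.14, with SEs of 0.12 and 0.21. The elongases Elovl6 and Elovl5 had -0.15 ± 0.20 and 0.01 ± 0.06 (SE), and the 95% interval of Elovl5 ran between -0.13 and 0.15.

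On the length-scaled FPKM values, the highest level in the fatty acid branch was that of Scd2, with 139 ± 36.1 FPKM in DOX and 155 ± 26.0 FPKM in Con tumours (SD, n = 4 each). Fdps led the sterol branch at 111 ± 22.1 FPKM in DOX and 118 ± 21.3 FPKM in Con tumours. Its level overlapped that of Acly, 100.1 ± 16.4 FPKM in DOX and 109 ± 19.9 FPKM in Con tumours. Srebf2 was the highest regulatory gene at 52.1 ± 8.88 FPKM in DOX and 60.5 ± 1.75 FPKM in Con tumours. The lowest was Tm7sf2 at 1.74 ± 0.187 FPKM in DOX and 1.56 ± 0.417 FPKM in Con tumours, and Acss2 had 2.77 ± 0.582 FPKM in DOX and 2.77 ± 0.679 FPKM in Con tumours. In the order of levels within each group of genes, the ranges over the 8 tumours overlapped for 27 of 31 pairs of neighbours. The steps without overlap lay between Hsd17b7 and Tm7sf2, Insig1 and Scap, Scap and Stard4, and Acaca and Acss2.

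**Figure D2:**
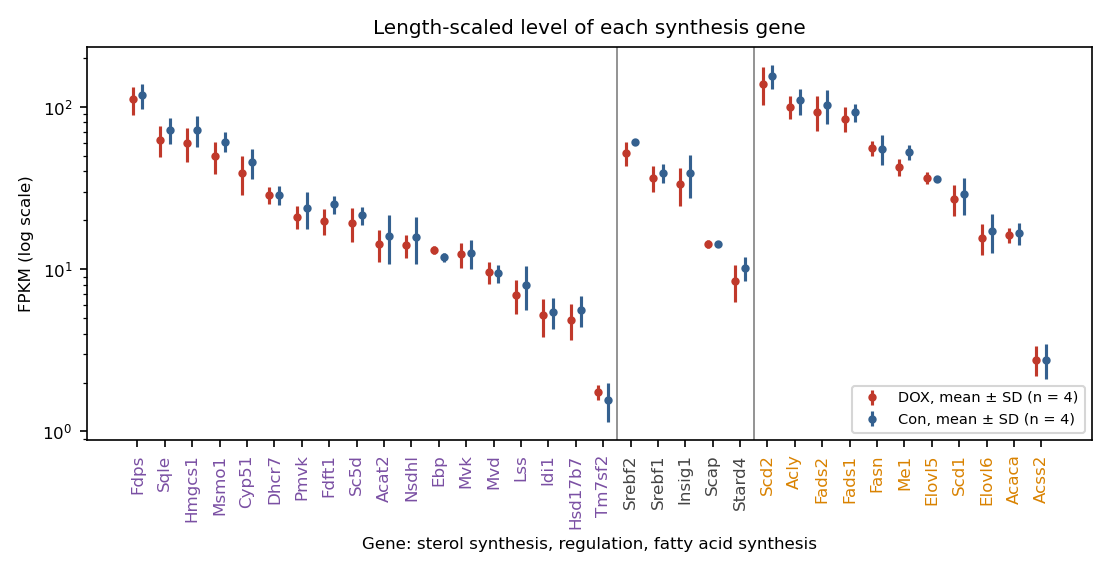
FPKM of each gene on a log axis, as the mean (points) and SD (bars) over 4 DOX and 4 Con tumours, ordered by level within sterol synthesis, regulation and fatty acid synthesis. Scd2 at 139 in DOX and 155 in Con tumours and Tm7sf2 at 1.74 in DOX and 1.56 in Con tumours are the extremes, and the bars of the groups overlap for most genes.

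For 29 of the 34 genes the log2 fold change was smaller than the SD among tumours of one group, the exceptions being Fdft1, Msmo1, Ebp, Srebf2 and Me1. The median within-group SD of log2 CPM was 0.277 for the 34, against 0.152 for all tested genes and 0.137 for the 11634 tested genes within the same range of levels. It was 0.283 for the sterol enzymes, 0.215 for the regulatory genes and 0.242 for the fatty acid enzymes. The widest were Acat2 at 0.417 and Insig1 at 0.411. The narrowest were Scap at 0.0519, Elovl5 at 0.0782 and Ebp at 0.0970.

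Con tumour 4 was the highest of the 8 for 24 of the 34 genes, where it was highest for 16.6% of all tested genes. DOX tumour 4 was the lowest for 25 of the 34, against 22.6% of all tested genes. Both held for 18 of the 34, against 4.97%: 11 sterol enzymes, 2 regulatory genes and 5 fatty acid enzymes. The count was 18 under edgeR's TMM scaling, under DESeq2's size factors and on the deposited FPKM. Con tumour 1 was the lowest for 7 more of the 34, a share near the 17.8% of all tested genes for which it was lowest. DOX tumours 1 and 2 and Con tumour 2, by contrast, lay above the gene's own mean for 29, 29 and 28 of the 34. The tumours at both ends thus came from different groups. These tumours were singled out after the values were seen, and the counts carry no test.

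**Figure D3:**
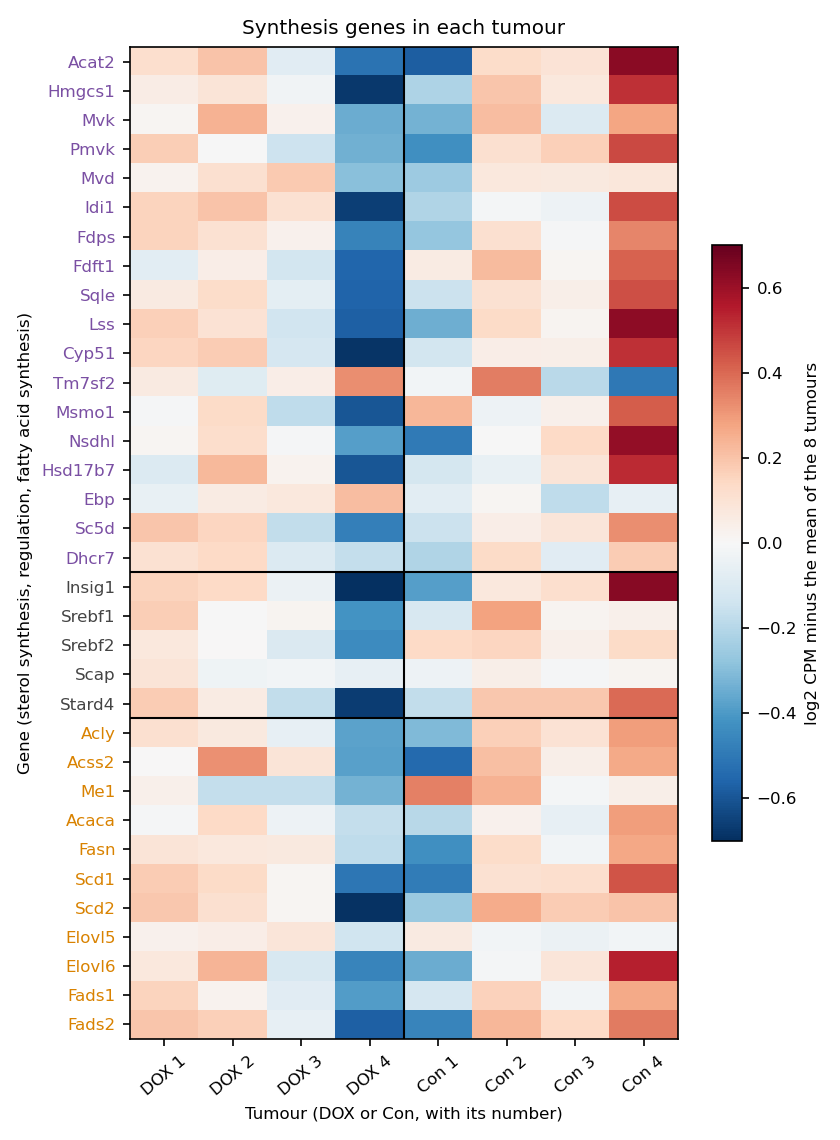
Log2 CPM of each of the 34 genes in each tumour, minus the gene's mean over the 8 tumours (colour; red above, blue below), with DOX tumours on the left and Con tumours on the right. DOX tumour 4, with a median deviation of -0.45, is the bluest column and Con tumour 4, with 0.33, the reddest; 18 of the 34 genes have their lowest value in DOX tumour 4 and their highest in Con tumour 4, and for Tm7sf2 and Ebp DOX tumour 4 lies above Con tumour 4.

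The genes differed in how far DOX tumour 4 and Con tumour 4 lay apart. The level in DOX tumour 4 was 0.394 times that in Con tumour 4 for Insig1, 0.433 times for Lss, 0.434 times for Cyp51 and 0.438 times for Hmgcs1. The median ratio was 0.504 over the sterol enzymes, 0.670 over the regulatory genes and 0.633 over the fatty acid enzymes, against 1.00 over all tested genes. The ratio ran the other way for Tm7sf2, at 1.83, and for Ebp, at 1.21. It was near 1 for Scap, at 0.950, and for Elovl5, at 0.917. Dhcr7, Me1 and Mvd, at 0.788, 0.771 and 0.769, were closer to 1 than most. These ratios compare single tumours and have no replicate check.

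The mean levels of the 18 sterol enzymes and of the 11 fatty acid enzymes ranked the lowest and highest tumours alike. The mean log2 CPM of the 18 sterol enzymes was 5.44, 5.49, 5.33 and 4.96 in DOX tumours 1 to 4, against 5.16, 5.47, 5.39 and 5.72 in Con tumours 1 to 4. That of the 11 fatty acid enzymes was 7.49, 7.50, 7.37 and 7.01 in DOX tumours 1 to 4, against 7.14, 7.53, 7.44 and 7.66 in Con tumours 1 to 4. In both branches DOX tumour 4 was lowest, Con tumour 1 next and Con tumour 4 highest. The group means were 5.31 ± 0.24 in DOX and 5.44 ± 0.23 in Con tumours for the sterol enzymes, and 7.34 ± 0.23 in DOX and 7.44 ± 0.22 in Con tumours for the fatty acid enzymes (SD, n = 4 each). Both differences, -0.13 and -0.10, were smaller than the SD within a group.

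Subtracting the fatty acid mean from the mean of all 18 sterol enzymes left little. The difference of the branches was -2.05, -2.01, -2.04 and -2.05 in DOX tumours 1 to 4, against -1.98, -2.06, -2.05 and -1.94 in Con tumours 1 to 4. Over the 8 tumours it ranged over 0.12, where the sterol mean ranged over 0.76 and the fatty acid mean over 0.65. It averaged -2.04 ± 0.02 in DOX and -2.01 ± 0.06 in Con tumours (SD, n = 4 each), a DOX minus Con difference of -0.03, and the groups overlapped. Without the acetyl-CoA enzymes Acly, Acss2 and Acat2, the difference was -0.02. The sterol mean includes Tm7sf2 and Ebp, whose ratios of DOX tumour 4 to Con tumour 4, 1.83 and 1.21, ran the other way. The branch difference without them was not computed, so its narrow range of 0.12 was shown only with both included. By its median ratio the sterol branch moved further between these tumours, at 0.504 against 0.633 for the fatty acid branch. The regulatory genes followed with 6.80, 6.70, 6.61 and 6.21 in DOX tumours 1 to 4, against 6.56, 6.82, 6.74 and 6.92 in Con tumours 1 to 4.

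**Figure D4:**
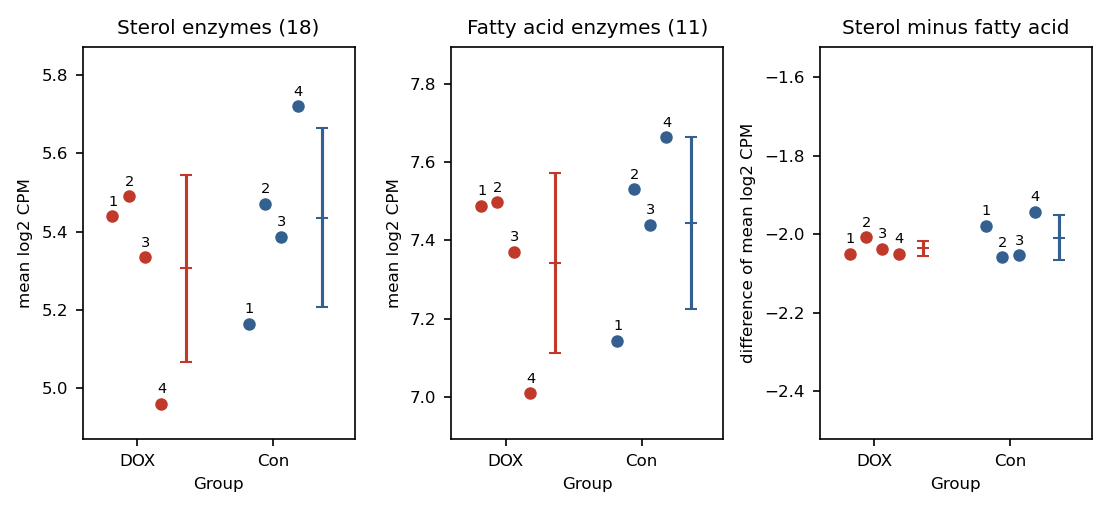
Mean log2 CPM of the 18 sterol enzymes (left) and of the 11 fatty acid enzymes (middle), and their difference (right), in each numbered tumour (points) with the group mean and SD (bars, n = 4). All panels span the same 1 log2 unit, and the difference ranges over 0.12 where the sterol mean ranges over 0.76. The sterol mean includes Tm7sf2 and Ebp, for which DOX tumour 4 lies above Con tumour 4.

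Lists of other pathway genes were read from the same fit. Of 12 other sterol and isoprenoid enzymes 0 passed the edgeR test, and their median log2 fold change was -0.01. Por, the electron donor of Cyp51 and Sqle, had 0.15 ± 0.09 (SE). The 9 genes of SREBP processing and sterol sensing varied little as a set, with a median within-group SD of log2 CPM of 0.0803. Their median log2 fold change was -0.02, and 0 passed. Insig2, the other INSIG, had -0.22 ± 0.14 and the protease Mbtps1 -0.13 ± 0.09 (SE). Of 8 genes of sterol uptake 0 passed, with a median of 0.05. The lysosomal lipase Lipa had 0.48 ± 0.19, and Npc2, which moves cholesterol out of lysosomes, 0.30 ± 0.18 (SE). Of 24 other fatty acid genes tested 0 passed, with a median of -0.01. The 3 with the smallest p were Hacd2, a dehydratase of chain elongation, with 0.24 ± 0.07, the elongase Elovl1 with 0.14 ± 0.05 and the acyl-CoA synthetase Acsl1 with 0.88 ± 0.31 (SE), each at an edgeR adjusted p of 0.387. For Hacd2 and Elovl1 every DOX tumour lay above every Con tumour, and for Acsl1 the groups overlapped.

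Of 10 genes of LXR, cholesterol efflux and esterification 9 were tested, and 0 passed the edgeR test. All 9 had a positive log2 fold change, as had 46.8% of all tested genes, with a median of 0.26. They were uneven: Nr1h2, Lpcat3, Soat1 and Ch25h had values between 0.03 and 0.04 with overlapping groups. Plin2, a lipid droplet coat, and the apolipoprotein gene Apoe had 0.26 ± 0.18 and 0.68 ± 0.37 (SE), again with overlap. The 3 with the smallest p are given by tumour. Nr1h3, which encodes LXR alpha, had 5.33, 12.3, 8.98 and 25.7 CPM in DOX tumours 1 to 4, against 1.58, 3.42, 4.46 and 4.02 CPM in Con tumours 1 to 4. The groups did not overlap, and DOX tumour 4, lowest for the synthesis genes, was highest. The log2 fold change was 1.95 ± 0.50 (SE), with an adjusted p of 0.387 in edgeR and 0.0156 in DESeq2. Abca1, the exporter that loads cholesterol onto apolipoproteins, had 103, 155, 88.3 and 209 CPM in DOX tumours 1 to 4, against 85.3, 87.9, 85.2 and 78.8 CPM in Con tumours 1 to 4. Abcg1, an exporter to HDL, had 50.8, 78.5, 49.6 and 110 CPM in DOX tumours 1 to 4, against 42.1, 33.3, 46.2 and 47.7 CPM in Con tumours 1 to 4. In both, every DOX tumour lay above every Con tumour and DOX tumour 4 was highest, but DOX tumour 3 came close to the Con tumours. The log2 fold changes were 0.72 ± 0.25 for Abca1 and 0.77 ± 0.26 for Abcg1 (SE), each with an adjusted p of 0.387 in edgeR, and with 0.101 and 0.0981 in DESeq2.

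**Figure D5:**
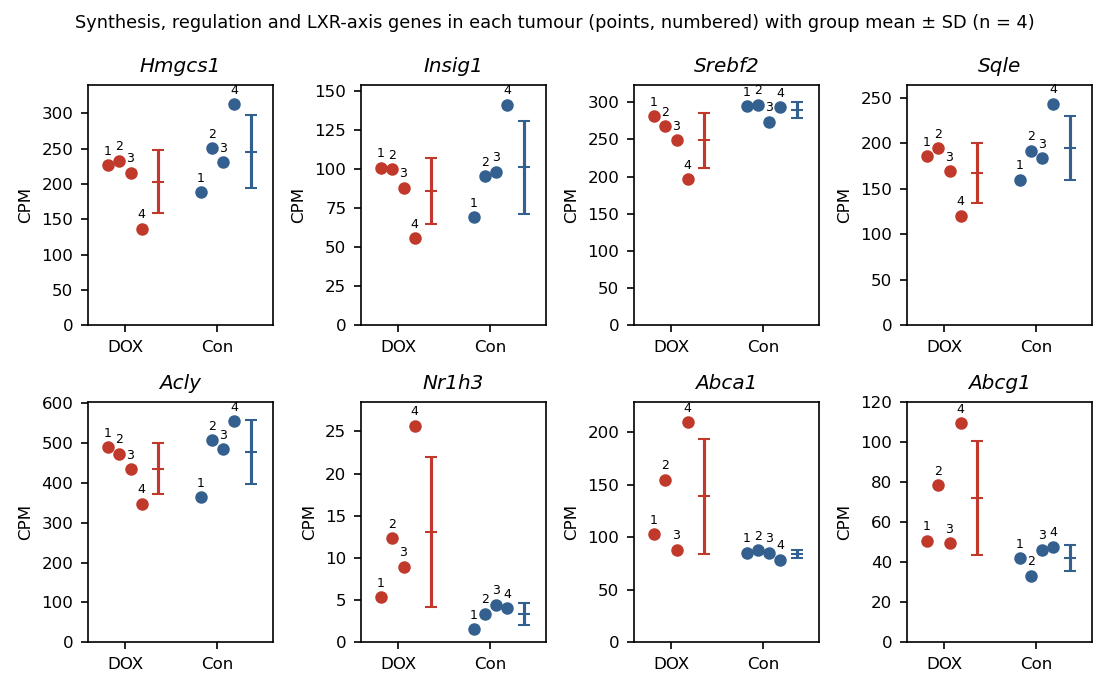
CPM of synthesis, regulation and LXR-axis genes in each numbered tumour (points) with the group mean and SD (bars, n = 4). DOX tumour 4 is the lowest point for Hmgcs1, Insig1, Srebf2, Sqle and Acly, at 137, 55.6, 197, 121 and 347 CPM, and the highest for Nr1h3, Abca1 and Abcg1, at 25.7, 209 and 110 CPM. The genes shown were chosen from their lists, and some others differ. DOX tumour 4 was highest for Ebp, at 24.5 CPM, and for Lpcat3 it lay below Con tumour 4, at 53.7 against 68.1 CPM.

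Sums of markers of other cells also differed among the tumours, and not always in the order of the synthesis genes. The 10 macrophage markers summed to between 2520 and 4430 CPM in DOX and between 1897 and 2180 CPM in Con tumours, with DOX tumour 4 highest. The 10 T cell markers summed to between 71.3 and 226 CPM in DOX and between 30.0 and 71.6 CPM in Con tumours, again with DOX tumour 4 highest. The 10 skeletal muscle markers ran between 18.9 and 198 CPM in DOX and between 3.11 and 52.6 CPM in Con tumours, and DOX tumour 4 was highest here too. Con tumour 1, next to lowest in both branch means, went the other way. It had the lowest macrophage, T cell and skeletal muscle sums, 1897, 30.0 and 3.11 CPM. Con tumour 4 had the highest sum of 8 proliferation markers, 2185 CPM, and the lowest of 8 fibroblast markers, 2311 CPM. Proliferation sums ran between 1759 and 1947 CPM in DOX and between 1840 and 2185 CPM in Con tumours, and fibroblast sums between 2719 and 3235 CPM in DOX and between 2311 and 4045 CPM in Con tumours. The 12 hypoxia genes summed to between 2907 and 3802 CPM in DOX and between 3674 and 5729 CPM in Con tumours, with Con tumour 1 highest. The part of these cell types and states in the levels of the synthesis and LXR genes was not tested.

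Fat tissue can carry many of these enzymes at high levels, and its part in these tumours was not tested. Of 12 adipocyte markers listed, 4 had enough counts to be tested. Adipoq, Plin1, Cidec and Cfd had at most 0.0546 CPM in any tumour, but Lipe had 8.52 to 16.0 CPM and Fabp4 2.23 to 8.25 CPM. The adipocyte list summed to between 55.0 and 92.6 CPM in DOX and between 57.3 and 69.6 CPM in Con tumours, most of it from the lipase Pnpla2, which many tissues express. Sebaceous and skin markers summed to between 14.3 and 17.9 CPM in DOX and between 14.9 and 27.6 CPM in Con tumours, and endothelial markers to between 58.0 and 98.2 CPM in DOX and between 57.9 and 101 CPM in Con tumours. For the labelled colon cancer cells, most epithelial markers were close to absent, and Krt8, Krt18 and Epcam had too few counts to be tested. Cdh1, the only listed marker tested, had 19.8 CPM in Con tumour 1 and 4.77 to 8.62 CPM in the other tumours. The list, most of it Cdh1, summed to between 7.19 and 9.35 CPM in DOX and between 5.55 and 20.4 CPM in Con tumours. Bulk counts do not resolve which cells of the tumour expressed the synthesis genes.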

How the data were processed

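The 34 genes and the pathway and marker lists were chosen with earlier results of these data known. The authors deposited read counts per gene, which are expected counts, since 64.9% of values were whole within 0.005, and FPKM, scaled to gene length and library size per the file headers. HISAT, Bowtie2 and GRCm38.p6 are named in the submitters' processing notes. Neither the counting tool nor its use of strand is given in the sources used here. A TPM table with 8 columns that match no label was not used.

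Totals were between 18685975 and 19307481 counts per tumour, and no pair of libraries agreed within sampling noise (chi-square per degree of freedom 5.25 to 71.7). Expected counts were rounded. In edgeR 4.0.16 (R 4.3.3), filterByExpr kept 13436 genes, scaled by TMM. The robust quasi-likelihood test of DOX over Con was adjusted by Benjamini-Hochberg at 0.05 over all of them; it was tested on simulated data. The common biological coefficient of variation was 14.7%. Intervals are 95% from the test's SE and degrees of freedom. Branch means use log2 CPM with a prior count of 2. Each tumour was treated as coming from a separate animal, and p-values measure the spread between tumours. Same-numbered tumours did not deviate together, which cannot show whether they were handled in pairs. The main fit used no pairing. All genes matched NCBI's annotation of GRCm38.p6 by Entrez ID; values are gene totals.

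Genes given with every tumour value were those at an unadjusted p below 0.05, those without overlap and the 2 highest by FPKM in each group of genes; from other lists, up to 3 tested genes with the smallest p. Any other gene is marked in place as picked with its values in view. Some genes of these lists are not reported here, though they stay in the fit and in list counts and medians. Alternatives were DESeq2 1.42.0, limma 3.58.1 on log2(FPKM + 1), other scaling, prior counts and filters, a replicate block and leaving out tumours.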

Additional observations from a re-analysis of the deposited data

Results flagged for a closer look

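Within groups of 4 tumours, the gap between an extreme tumour and its nearest neighbour was divided by the group's range; a share above Dixon's 95% critical value marked the tumour as far from the others. Of 104 groups examined 6 were marked, and chance marks about 5% of groups. DOX tumour 4 was low for Idi1, at 9.24 CPM against 15.8 to 16.9 CPM in the other DOX tumours, and for Fasn, at 451 CPM against 534 to 543 CPM. Con tumour 1 was low for Mvd, at 13.5 CPM against 17.0 to 17.2 CPM in the other Con tumours. Con tumour 3 was low for Srebf2, at 274 CPM against 294 to 297 CPM, and high for Mylip, an E3 ubiquitin ligase gene, at 73.3 CPM against 61.2 to 62.8 CPM. Con tumour 2 was high for the SREBP protease gene Mbtps1, at 163 CPM against 136 to 140 CPM. Idi1 had a whole count in 0 of 8 libraries.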

How the results depend on the processing

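The alternatives were DESeq2, its size factors (RLE), limma on FPKM with pseudocounts of 1 and 0.1, no filter on low counts or FPKM, the replicate block and leaving out tumours. Under all of them 0 of the 34 genes passed an adjusted p of 0.05. All tested genes past it numbered 82 with DESeq2 against 1 in edgeR, and 1 to 2 with 1 tumour left out, the 2 without DOX tumour 4. Same-numbered tumours did not deviate together (correlations 0.00, 0.04, 0.09 and -0.02), which cannot show whether they were handled in pairs. With a replicate block 1 of the 34, Me1, had an unadjusted p below 0.05 in edgeR, against 2 without it. With 1 tumour left out that number was 1 to 3, being 1 without DOX tumour 3, DOX tumour 4, Con tumour 2 or Con tumour 4. The sterol median of -0.17 ranged between -0.29 without Con tumour 1 and -0.01 without Con tumour 4, and the fatty acid median of -0.13 between -0.24 and 0.01. Without DOX tumour 4 and Con tumour 4 together, they were 0.10 and 0.11. The DOX minus Con difference of the branches lay between -0.04 and -0.01 with 1 tumour left out, and was -0.01 without Con tumour 4.

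Of the 34 genes 6 kept their sign under all 16 alternatives: Fdft1, Msmo1, Ebp, Srebf2, Stard4 and Me1. The other 28 changed sign under at least 1, and the cause was not tested. The 16 include leaving out DOX tumour 4 and Con tumour 4 together, chosen after seeing them lowest and highest for many genes. Under that alternative alone the sign changed for Hmgcs1, Pmvk, Sqle, Lss, Cyp51, Tm7sf2, Hsd17b7, Sc5d, Insig1, Acly and Fads1. Acss2 was -0.0034 with DESeq2, -0.0024 with RLE and -0.0027 without the count filter. Without DOX tumour 4 and Con tumour 4 together the log2 fold change was 0.17 for Acat2, 0.016 for Hmgcs1, 0.16 for Mvk, 0.043 for Pmvk, 0.24 for Idi1, 0.15 for Fdps, 0.042 for Sqle, 0.10 for Lss, 0.089 for Cyp51, -0.059 for Tm7sf2, 0.14 for Nsdhl, 0.089 for Hsd17b7, 0.072 for Sc5d, 0.10 for Dhcr7, 0.14 for Insig1, 0.021 for Scap, 0.045 for Acly, 0.11 for Acaca, 0.18 for Scd1, 0.032 for Scd2, 0.16 for Elovl6, 0.028 for Fads1 and 0.11 for Fads2. With 1 tumour left out it ranged over -0.35 to 0.038 for Acat2, -0.14 to 0.066 for Mvk, -0.057 to 0.11 for Mvd, -0.16 to 0.089 for Idi1, -0.18 to 0.040 for Fdps, -0.33 to 0.042 for Nsdhl, -0.081 to 0.046 for Dhcr7, -0.18 to 0.0063 for Srebf1, -0.039 to 0.016 for Scap, -0.15 to 0.12 for Acss2, -0.11 to 0.056 for Acaca, -0.11 to 0.11 for Fasn, -0.25 to 0.041 for Scd1, -0.27 to 0.00092 for Scd2, -0.016 to 0.062 for Elovl5, -0.27 to 0.037 for Elovl6 and -0.29 to 0.0063 for Fads2. With 4 tumours a group and this spread, the intervals of 16 of the 34 genes reach beyond a 1.5-fold change.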
